A study of Mus musculus with 2 samples.

Results

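Promoters of noncoding RNA genes were examined among the DNase I hypersensitive sites (DHS) of mouse splenic B cells, that is, the regions of chromatin that the endonuclease DNase I cuts most readily. A DHS was taken when it overlapped the 1 kb on either side of a transcription start site (TSS) of a noncoding gene in GENCODE release M1 and had no TSS of a protein-coding transcript within 5 kb. The gene types asked for were lincRNA, antisense and processed_transcript, but release M1 gives the type antisense to 0 genes, and antisense transcripts sit inside its processed_transcript genes. The rule found 506 of the 47542 DHS of the list, or 506 of the 46610 on chromosomes 1 to 19, and it used position only. They belonged to 415 noncoding genes, 171 of them lincRNA and 244 processed_transcript genes. A further 1137 DHS lay within 1 kb of a noncoding TSS but had a protein-coding TSS within 5 kb, where the 2 promoters cannot be told apart, and were kept as a separate class.

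The cells came from 8 weeks old C57/Bl6 mice of genotype Trp53+/+ after mock treatment, and were enriched from spleen by magnetic sorting with B220 MicroBeads. The series holds 1 DNaseI library and 1 input library of the same cells. Only the peak list of the DNaseI library was analysed, so there are no replicates, no p-value is given, and every comparison describes this library. The list carries no read counts and the depth is unknown, so that a TSS with no DHS is one where no peak was called. All intervals are 95% intervals and cover counting error only. The label of the cells was checked at marker genes. All 8 B cell markers had a DHS within 1 kb of a TSS, against 0 of 6 T cell markers and 0 of 3 NK cell markers. A DHS was also found at 2 of 6 myeloid markers, Itgam and Cd14, and at the erythroid marker Klf1. The part of other spleen cells in the DHS described here was not tested.

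Long noncoding RNAs are transcribed by RNA polymerase II, capped and often spliced, but code for no protein. Some act as RNAs, for instance as scaffolds of nuclear bodies or in silencing imprinted genes. Others serve mainly as precursors of microRNAs or of small nucleolar RNAs (snoRNAs), which are cut out of their introns or exons, and for many no role is known. Like protein-coding genes they can start in CpG-rich DNA, which escapes CpG methylation and tends to be open in many tissues, or in CpG-poor DNA, whose opening depends more on the cell type. In lymphocytes the best known are the hosts of miR-142, miR-155, the miR-17~92 cluster and miR-15/16, small RNAs with roles in the growth and survival of B cells.

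The microRNAs inside the genes with these DHS are shown first, since they are the part of the transcripts whose function is best known. Hairpin sequences from RefSeq were searched letter for letter, on the strand of the gene, in the mm9 sequence of the genes that had a noncoding promoter DHS. This search found 19 hairpins with 34 distinct mature microRNAs in 12 of these genes. It did not find every annotated microRNA, so these counts are not complete. No hairpin was found in 2610206C17Rik, 1700023L04Rik, Gm16551 or Gm16953, although each has an annotated microRNA inside it. The mature sequences are those of the RefSeq table for GRCm38.p6, and capitals mark the seed, bases 2 to 8, with which a microRNA pairs to its targets.
miR-142a-5p: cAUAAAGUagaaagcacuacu
miR-142a-3p: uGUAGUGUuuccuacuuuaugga
miR-16-5p: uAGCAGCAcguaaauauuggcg
miR-155-5p: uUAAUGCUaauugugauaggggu
miR-101a-3p: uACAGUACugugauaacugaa
miR-22-3p: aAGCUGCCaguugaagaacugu
The host Mir17hg carries 6 hairpins in a row, and 2 pairs of their products share a seed, miR-17-5p with miR-20a-5p and miR-19a-3p with miR-19b-3p.
miR-17-5p: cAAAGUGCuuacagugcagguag
miR-20a-5p: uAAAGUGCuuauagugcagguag
miR-19a-3p: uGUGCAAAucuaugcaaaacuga
miR-19b-3p: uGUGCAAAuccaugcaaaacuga
miR-18a-5p: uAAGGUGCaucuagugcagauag
miR-92a-3p: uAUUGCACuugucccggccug
Another shared seed was that of miR-29b-3p and miR-29c-3p, both hosted by A330023F24Rik.
miR-29b-3p: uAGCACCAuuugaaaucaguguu
miR-29c-3p: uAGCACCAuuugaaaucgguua

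The DNA under the DHS differed widely in its CpG content. Shown are the 150 bp around the centre of 5 DHS, on the plus strand of mm9 and with every CG dinucleotide in capitals, for the DHS with the highest score (A430104N18Rik, host of miR-142, chr11:87567924-87568073), the next (D730003I15Rik, chr1:193048462-193048611), Malat1 (chr19:5803212-5803361), Dleu2 (chr14:62301392-62301541) and Mir155 (chr16:84714046-84714195).
A430104N18Rik: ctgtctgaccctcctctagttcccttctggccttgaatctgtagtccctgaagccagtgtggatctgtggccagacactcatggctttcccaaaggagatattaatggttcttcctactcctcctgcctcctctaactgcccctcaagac
D730003I15Rik: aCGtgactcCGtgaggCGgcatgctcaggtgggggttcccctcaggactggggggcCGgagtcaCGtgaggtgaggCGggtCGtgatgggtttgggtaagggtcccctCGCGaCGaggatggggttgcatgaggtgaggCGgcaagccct
Malat1: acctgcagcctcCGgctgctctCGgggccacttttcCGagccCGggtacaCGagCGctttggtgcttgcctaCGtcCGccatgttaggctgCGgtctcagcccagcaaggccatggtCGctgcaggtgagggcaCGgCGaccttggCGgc
Dleu2: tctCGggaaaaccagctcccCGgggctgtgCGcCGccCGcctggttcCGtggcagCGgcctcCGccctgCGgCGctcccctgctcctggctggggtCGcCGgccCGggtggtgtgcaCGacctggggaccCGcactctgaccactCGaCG
Mir155: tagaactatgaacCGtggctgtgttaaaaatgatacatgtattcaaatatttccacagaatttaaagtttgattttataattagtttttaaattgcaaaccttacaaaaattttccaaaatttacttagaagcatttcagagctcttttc
Dleu2 held 17 CG dinucleotides in this stretch and Malat1 13, followed by D730003I15Rik with 11. The stretch of Mir155 held 1, and that of A430104N18Rik 0 at a GC content of 52.0%. The DHS with the highest score of the class thus had the fewest CG dinucleotides of the 5 stretches shown. Stretches read but not shown held 6 at Gm13840, 3 at Mir17hg and 0 at Gm12159, whose DHS scored 54.3.

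Noncoding genes had a DHS at their start less often than protein-coding genes. Of 2239 noncoding genes with a TSS more than 6 kb from every protein-coding TSS, 406 had a DHS within 1 kb of such a TSS, a share of 18.1% (16.6 to 19.8%). When the same windows were moved 10 kb upstream, 202 of them, 9.02% (7.90 to 10.3%), met a DHS, so that the share at the TSS was higher by 9.11 percentage points (7.12 to 11.1). Among protein-coding genes, 11511 of 21416 had a DHS at a TSS, or 53.7%. With their windows moved 10 kb upstream, 3001 of the 21416 met a DHS, or 14%, so the upstream share also differed between the classes. A gene with several TSSs has more windows in which a DHS can fall, and the effect of their number was not tested. Noncoding genes whose TSSs all lay closer to protein-coding TSSs reached 57.6% (55 to 60.2%), and the share over all 3669 noncoding genes was 34.3%.

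Among the distant noncoding genes, the share differed widely with the CpG content of the TSS. CpG-rich TSSs were those with at least 55% GC in the surrounding 1000 bp and with CpG at 0.6 or more of the number expected from base composition. Only 111 of the 2239 noncoding genes, 4.96%, had such a TSS, against 43.9% of protein-coding genes. Of these 111 genes, 76 had a DHS, or 68.5% (59.3 to 76.4%), while 330 of the other 2128 had one, or 15.5% (14 to 17.1%). Both shares were below those of protein-coding genes of the same kind. The difference was -15.4 percentage points (-24.6 to -7.46) for CpG-rich TSSs, where 83.9% of protein-coding genes had a DHS, and -14.6 points (-16.3 to -12.8) for the others, where 30.1% had one.

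**Figure D1:**
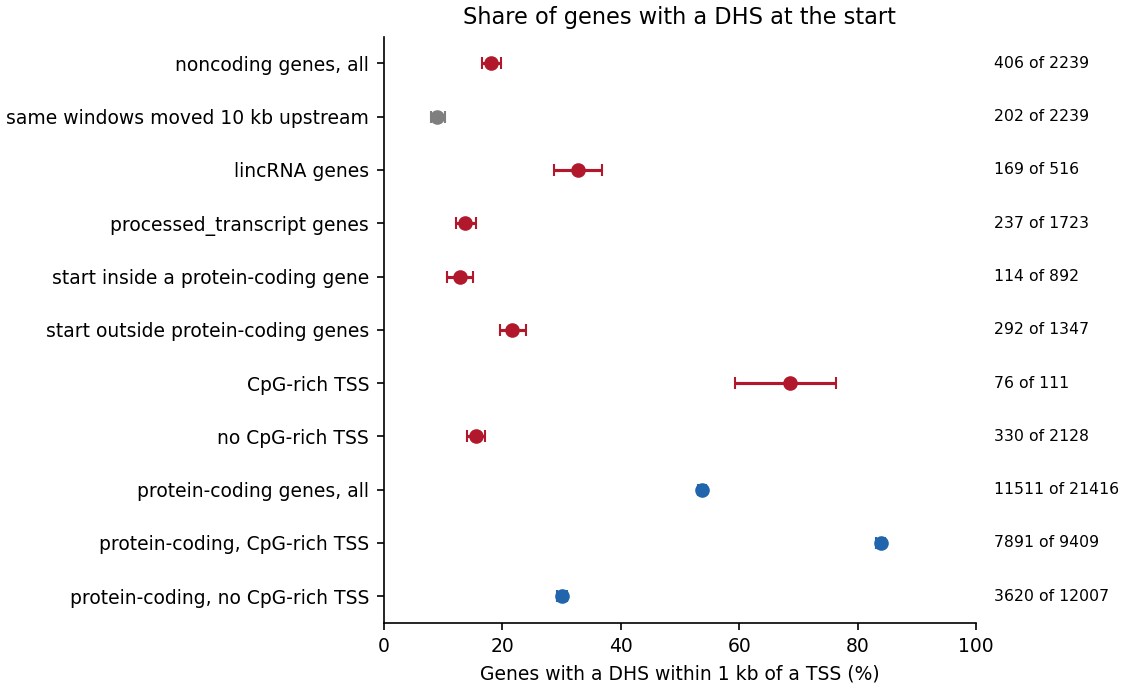
Share of genes with a DHS within 1 kb of a TSS (horizontal axis, percent) for noncoding genes more than 6 kb from protein-coding TSSs (red), the same windows moved upstream (grey) and protein-coding genes (blue). Points are shares with 95% Wilson intervals and the counts stand on the right. The 111 noncoding genes with a CpG-rich TSS lie at 68.5%, and every other red point lies at or below 32.8%.

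By gene type, lincRNA genes had a DHS at their TSS more often than processed_transcript genes. The shares were 169 of 516, 32.8% (28.8 to 36.9%), and 237 of 1723, 13.8% (12.2 to 15.5%), a difference of 19 points (14.7 to 23.4). The difference was 15.9 points (11.6 to 20.5) among genes without a CpG-rich TSS. With a CpG-rich TSS, 42 of 63 lincRNA genes, 66.7%, and 34 of 48 processed_transcript genes, 70.8%, had a DHS, a difference of -4.17 points (-20.6 to 13.3). The difference was 23.6 points (18.1 to 29.2) among genes that start outside protein-coding genes, where 39.1% of lincRNA and 15.5% of processed_transcript genes had a DHS, and 7.98 points (2.14 to 15) among those that start inside one. The order was not the same by transcript type, which GENCODE gives apart from the gene type. Genes by lincRNA transcripts had a DHS in 189 of 1076 cases, 17.6% (15.4 to 20%), and genes by processed_transcript transcripts in 91 of 287, 31.7% (26.6 to 37.3%). Genes whose transcripts are annotated as antisense had a DHS in 111 of 793 cases, or 14% (11.8 to 16.6%). Noncoding genes that start inside a protein-coding gene had one in 12.8% of cases and the others in 21.7%, a difference of -8.90 points (-12 to -5.73).

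Coverage by DHS was highest near the annotated starts. At CpG-rich noncoding TSSs, 65 of 111 positions at the TSS itself were covered by a DHS, or 58.6% (49.3 to 67.3%), and 2.70% of positions 10 kb upstream. The other noncoding TSSs were covered in 192 of 2128 cases, 9.02% (7.88 to 10.3%), against 2.77% (2.16 to 3.56%) 10 kb upstream. Protein-coding TSSs were covered in 67.0% of cases where CpG-rich and in 22.8% elsewhere. Among the 506 noncoding promoter DHS, the rule itself keeps the centres near a TSS. Their median distance from the nearest noncoding TSS was 356 bp, and 244 centres lay upstream of it and 262 downstream or at it.

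**Figure D2:**
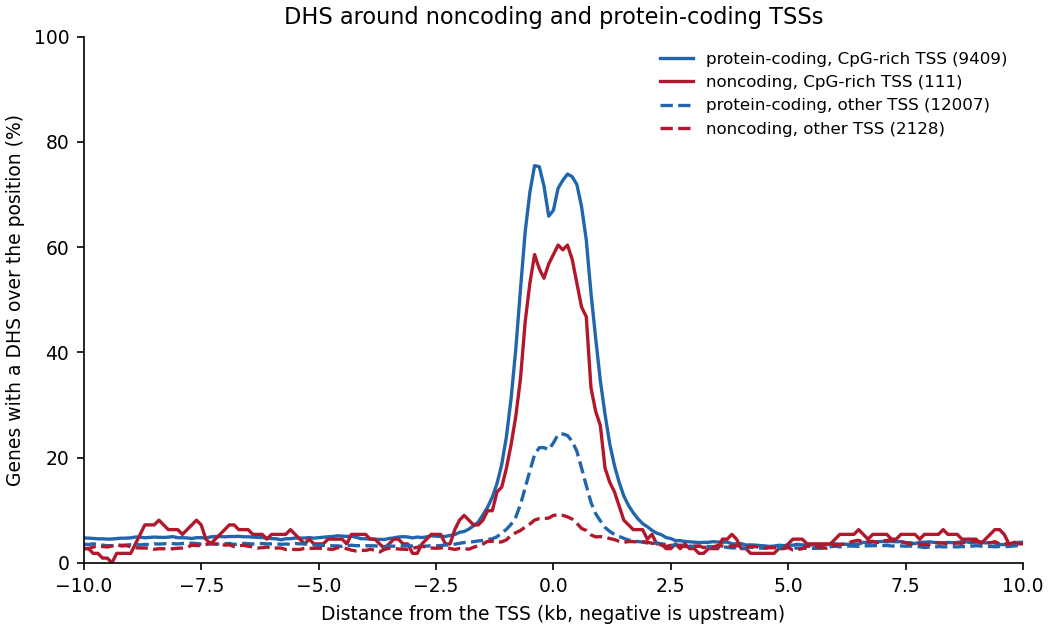
Share of genes with a DHS over each position from 10 kb upstream to 10 kb downstream of the TSS, in steps of 100 bp, for noncoding genes more than 6 kb from protein-coding TSSs (red) and protein-coding genes (blue), CpG-rich (solid) or not (dashed). At the TSS the solid red line is at 58.6% and the dashed red line at 9.02%, and all 4 lines fall below 5% 10 kb upstream.

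In the authors' score, a value per peak from the peak caller whose scale is not stated, noncoding promoter DHS lay between protein-coding promoters and distal DHS. Their median score was 41.4 (37.4 to 45.8), with quartiles of 20.6 and 83.1 and a range from 5.12 to 447. The median was 78.8 (77.5 to 80.3) for the 14625 DHS within 1 kb of a protein-coding TSS and 24.3 (24.0 to 24.7) for the 22335 distal DHS, which had no annotated TSS of any kind within 5 kb. The 1137 DHS with both kinds of TSS nearby had a median of 76.5 (72.2 to 80.7), close to protein-coding promoters. The classes overlap, since those of the 1137 within 1 kb of a protein-coding TSS are also counted among the 14625. Median widths followed the same order, with 987 bp for noncoding promoters, 1125 bp for protein-coding promoters and 605 bp for distal DHS. A score of at least 100 was reached by 99 noncoding promoter DHS, 19.6% (16.3 to 23.2%), compared with 38.1% of protein-coding promoter DHS, 5.08% of distal DHS and 15.7% of all DHS.

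Measured on the 1000 bp around the centre of the DHS, 79 of the 506 were CpG-rich, or 15.6% (12.7 to 19%), an interval that includes the 16.7% of all DHS. The difference from protein-coding promoter DHS, at 49.1%, was -33.4 points (-36.5 to -29.9), and that from distal DHS, at 1.15%, was 14.5 points (11.6 to 17.9). CpG-rich noncoding promoter DHS had a median score of 84.7 (68.3 to 123). The interval takes in the values of CpG-rich protein-coding promoters, 98.4 (96.6 to 100), and its lower part overlaps that of CpG-rich distal DHS, 54.9 (46.3 to 71.8). Noncoding promoter DHS that were not CpG-rich had a median of 37.7 (31.8 to 42.3), below the 61.0 (59.0 to 62.6) of such protein-coding promoters and above the 24.2 (23.9 to 24.4) of such distal DHS.

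**Figure D3:**
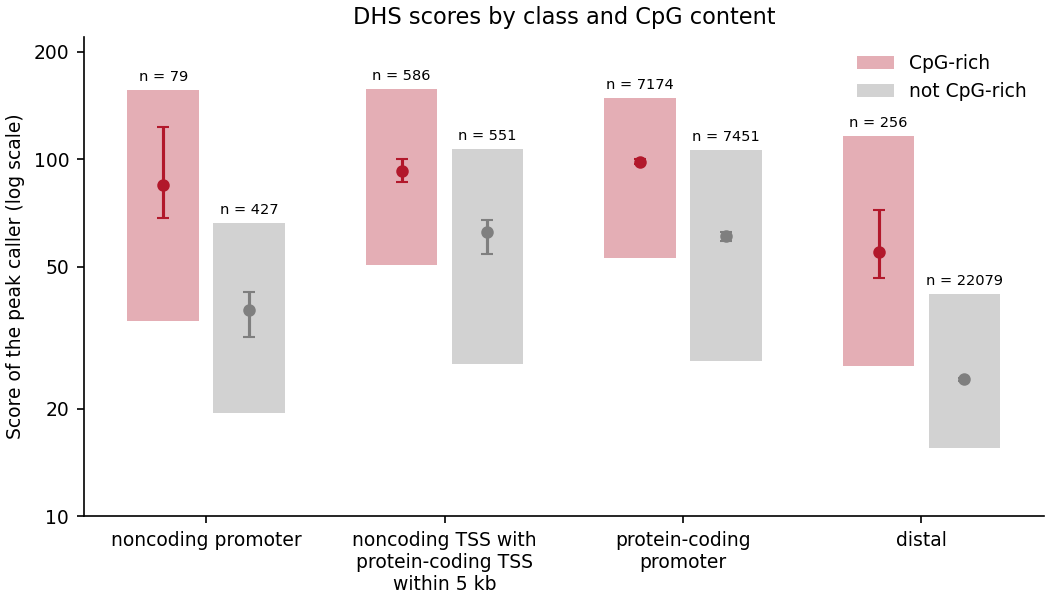
Scores of DHS by class (vertical axis, log scale), CpG-rich in red and the rest in grey. Boxes span the quartiles, points are medians with 95% order-statistic intervals, and n is the number of DHS. The median of the 79 CpG-rich noncoding promoter DHS is 84.7, and that of the other 427 is 37.7.

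The DHS fell into a pair of groups by whether they covered a noncoding TSS. In 275 cases, 54.3% (50 to 58.6%), the DHS lay over a TSS, and these had a median score of 58.3 (51.0 to 67.0) and a median width of 1290 bp. The other 231 lay within 1 kb of a TSS without reaching it, with a median score of 26.7 (23.4 to 29.3) and 627 bp. A wider peak covers a given point more readily, and width and score rise together in this list, so the split is not independent of the score. By the centre of the DHS, which depends less on width, the 300 within 500 bp of a TSS had a median score of 45.1 (40.2 to 52.1) and the 206 farther away one of 33.1 (28.4 to 43.0), with overlapping intervals. The 220 DHS that neither covered a TSS nor were CpG-rich had a median score of 26.5 (23.1 to 30.0), next to 24.2 for distal DHS without CpG-rich sequence, a value inside its interval. Of the CpG-rich DHS 86.1% covered a TSS, and of the others 48.5%.

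In 143 cases, 28.3% (24.5 to 32.3%), the centre lay inside a protein-coding gene, and the noncoding gene ran on the opposite strand in 114 of them, on the same strand in 27, and on both in 2. Their median score was 30.0 (25.8 to 41.6), compared with 45.0 (39.2 to 51.7) outside protein-coding genes. Another DHS lay within 10 kb of 413 of the 506, or 81.6% (78.0 to 84.8%), while it was 78.8% over all DHS, a value inside that interval. The difference from distal DHS was 5.59 points (1.94 to 8.77) in all, -3.13 points (-15.2 to 7.75) among CpG-rich DHS and 7.99 points (4.18 to 11.2) among the others. At the limit of 5 kb set by the rule, the 27 DHS with a protein-coding TSS 5 to 6 kb away had a median score of 50.5, and the 13 left out because one lay 4 to 5 kb away had 31.1.

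The DHS with the highest score, 447, lay at chr11:87567090-87568907, upstream of A430104N18Rik, a gene of 1 hosted microRNA, miR-142, which is made in blood cells. Its centre was 1080 bp upstream of the annotated TSS, which it did not cover, and it ranked above 99.9% of all DHS. The next was at D730003I15Rik (355, chr1:193047550-193049524), a lincRNA gene 40331 bp from the nearest protein-coding TSS, that of the stress-response transcription factor gene Atf3. Gm13840 (337) is a transcript inside the cytoskeletal adaptor gene Pxn, on the same strand, and 13.6% of the 31-base words of its DHS occurred more than once in the genome. These were followed by BB557941 (297) and 2310001H17Rik (275), the latter 36752 bp from the TSS of Cd69, which encodes an early activation marker of lymphocytes. Then came Malat1 (275) and Dleu2 (267), described below, and Gm17395 (259), whose nearest protein-coding gene was Klrb1b, of the killer cell lectin-like receptors. The list of 10 ended with B230208H11Rik (256), near the syntaxin gene Stx11, and C920006O11Rik (253), near Gsta4. Of these 10 DHS, only those of A430104N18Rik and Gm13840 did not cover a TSS of the gene.

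The widest DHS were not always those of the highest score. Gm11399, antisense to the centrosomal gene Sfi1, had the widest at 5732 bp with a score of 65.8. It was followed by 2310001H17Rik with 5225 bp, Neat1 with 5198 bp, and Gm16170 with 5194 bp and a score of 192, in the neighbourhood of the interferon-induced GTPase gene Irgm1. The fifth was Dleu2 with 4839 bp. Widths of at least 3000 bp were reached by 14 noncoding promoter DHS, 2.77% (1.66 to 4.59%), against 2.61% of protein-coding promoter DHS, 0.421% of distal DHS and 1.18% of all DHS.

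Housekeeping noncoding RNAs had a DHS throughout. Of the 22 symbols listed, 13 were noncoding genes of release M1, and 13 of 13 had a DHS within 1 kb of a TSS (75.3 to 100%), read against 34.3% over all noncoding genes. For 6 of them no protein-coding TSS lay within 5 kb. Malat1, whose abundant RNA gathers at nuclear speckles, had a DHS of score 275 and 2871 bp that was CpG-rich and covered the TSS. Neat1, the scaffold of paraspeckles, lies beside Malat1 on chromosome 19 and had a score of 233. The snoRNA host genes Snhg7, Snhg5 and Snhg4 had scores of 104, 99.6 and 83.0, and 1700020I14Rik had 84.7. For the other 7 genes a protein-coding TSS lay within 5 kb of the DHS of highest score, at Snhg12 4779 bp away. Their highest scores were 243 at Gt(ROSA)26Sor, 218 at Gas5, 163 at Tug1, 148 at Snhg12, 143 at Snhg3, 125 at Snhg1 and 86.2 at Snhg9. All 13 scores lay above the median of protein-coding promoter DHS, 78.8. They are the highest per gene, whereas that median is over single DHS, and some of the 13 belong to that class themselves.

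Hosts of microRNAs and transcripts known from lymphocytes were also open, although 7 of the 11 listed symbols were not in the annotation. All 4 that were had a DHS (39.8 to 100%), each without a protein-coding TSS within 5 kb. Dleu2, host of miR-16-1 and a gene often deleted in chronic lymphocytic leukaemia, had 3 DHS with scores of 267, 182 and 41.0. The strongest, at chr14:62299048-62303886, covered the TSS at the 5′ end of the gene, and that of 182 covered a TSS further inside. Mir17hg had a DHS of 99.2 that ended over its TSS. Pvt1, the noncoding neighbour of the Myc oncogene, had one of 73.0, and Gm14005, also called Morrbid, one of 50.3. The share of all noncoding genes more than 6 kb from protein-coding TSSs with a DHS, against which these 4 are read, was 18.1%.

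Few of the listed imprinted and developmental genes had a DHS, and the difference from the other lists was not tested. Of 6 imprinted noncoding genes only Airn, the antisense transcript at the imprinted receptor gene Igf2r, had a DHS, with a score of 22.6, that is 16.7% (0.421 to 64.1%). None was called at H19, Meg3, Rian, Mirg or Nespas. Of 9 noncoding genes known from development or from other tissues, 1 had a DHS, Vax2os1, with a score of 11.7 and a protein-coding TSS within 5 kb, that is 11.1% (0.281 to 48.2%). No DHS was called at the other 8. With lists this short the intervals of both include the 34.3% of all noncoding genes.

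**Figure D4:**
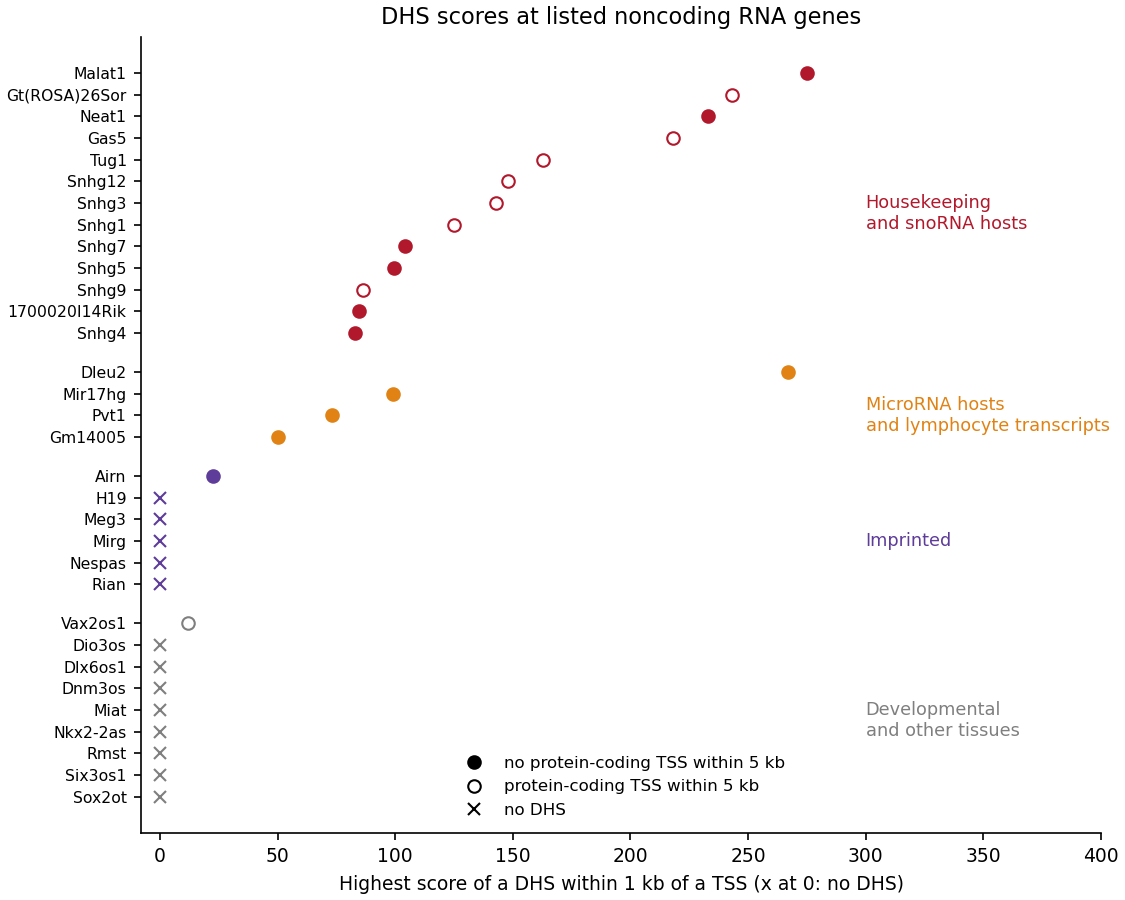
Highest score of a DHS within 1 kb of a TSS for each gene of the 4 lists of noncoding RNAs. Filled points have no protein-coding TSS within 5 kb, open points have one, and crosses at 0 mark genes with no DHS. The 13 housekeeping genes lie from 83.0 to 275 and the 4 genes of the lymphocyte list from 50.3 to 267, whereas 13 of the 15 imprinted and developmental genes have no DHS.

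Taken by annotation instead of by name, genes that contain small RNAs were read against the 34.3% of all noncoding genes. Of 52 noncoding genes with an annotated microRNA inside them, 24 had a DHS, or 46.2% (33.3 to 59.5%), an interval that includes the 34.3%. Restricted to TSSs more than 6 kb from protein-coding TSSs, it was 13 of 37, 35.1% (21.8 to 51.2%), set beside 18.1% for all such genes. For snoRNA hosts the shares were 19 of 36, 52.8% (37 to 68.0%), and 13 of 28, 46.4% (29.5 to 64.2%). The hosts described next were picked after their values had been seen. E130102H24Rik, which contains miR-101a, had DHS of 234 and 71.4, of which the weaker covered the TSS and was CpG-rich. A330023F24Rik, host of miR-29b-2 and miR-29c, had a CpG-rich DHS of 139 over its TSS. The DHS of 2210403K04Rik, which contains miR-22, scored 54.1 and lay over the TSS inside Tlcd2. At Mir155, whose microRNA rises when lymphocytes are activated, the DHS scored 50.6 and lay 853 bp downstream of the TSS by its centre, over the hairpin itself (chr16:84714385-84714449). The brain microRNA miR-9-2 lies in C130071C03Rik, which had 3 DHS with scores of at most 36.6.

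Most of the genes had a single promoter DHS. Of the 415, 318 had 1, 85 had 2, 10 had 3 and 2 had 4. The 2 genes with 4 were Pisd-ps1, with scores from 30.2 to 160, and 5830418P13Rik, with scores from 9.55 to 116. In Pisd-ps1 up to 83.5% of the 31-base words of a DHS occurred more than once in the genome, and in 5830418P13Rik up to 14.7%. How reads from such sequence were placed is not given in the sources used here. Among the genes with 3, D430018E03Rik reached 90.7, Gm10044 63.0 and C130071C03Rik 36.6. Over all 506, repeated words made up more than 10% in 59 DHS, or 11.7% (9.15 to 14.7%).

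Most of the DHS had a protein-coding gene in the wider neighbourhood. The distance to the nearest protein-coding TSS was 10 to 50 kb for 266 of the 506 and over 100 kb for 46. The 5 farthest were at Gm13470, 1326020 bp from Zeb2, a transcription factor gene, then at Gm11818, Gm11674 (630489 bp), Gm12160 and Gm12159. The last 2 both had Ebf1 as their nearest protein-coding gene, at 542359 and 498160 bp. Ebf1 encodes a transcription factor required for the B cell lineage, and 4 noncoding promoter DHS had it as nearest gene, with scores from 9.86 to 54.3. The highest of these was Gm12159 (chr11:44929841-44930875), over its TSS, with 0.102 as observed to expected CpG ratio. The 506 DHS had 372 different nearest protein-coding genes, and Mef2c, another transcription factor gene used in B cells, was the nearest of 4.

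A set of 14 short words stand for the binding sites of transcription factors, and were searched on both strands in the central 300 bp of every DHS. A match says that the letters are there and not that the factor was bound. They were the CTCF core, by its usual consensus, PU.1 (GAGGAAGT), Ets (CCGGAAG), Runx (TGTGGTT), an E box (CAGGTG), the GC box (GGGCGG), the CCAAT box (CCAAT), CRE (TGACGTCA), the octamer (ATTTGCAT), YY1 (AAGATGGC), the TATA box (TATAAA), NF-kB (GGGACTTTC), Ebf1 (CCCNNGGGA) and the p53 element, a pair of adjacent decamers of which up to 2 bases, but never the central C or G of a decamer, could differ from the consensus. The PU.1 and Ets words share the letters GGAAG but differ in the base before them, and cannot match at the same place on 1 strand. Of the 506 DHS, 124 held none of the words.

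The GC box, bound by Sp1 and its relatives, was found in 105 noncoding promoter DHS, 20.8% (17.4 to 24.5%), an interval that includes the 18.6% of all DHS. Protein-coding promoter DHS were at 41.6% and distal DHS at 7.27%. Among CpG-rich DHS 51.9% held it, with a difference of -0.445 points (-12.9 to 11.9) from CpG-rich distal DHS, at 52.3%. Among the others it was in 15%, a difference of 8.24 points (5.15 to 12) from distal DHS, at 6.75%, and of -8.83 points (-12.1 to -5.02) from protein-coding promoters. Among those covering a TSS 32.7% (27.5 to 38.5%) had it, and among those beside one 6.49% (3.97 to 10.4%). The Ets word was in 5.34% (3.69 to 7.65%), a difference of -5.01 points (-6.73 to -2.64) from protein-coding promoters and of 3.18 points (1.52 to 5.50) from distal DHS. Its share in all DHS, 4.88%, lies inside the interval. The Ets difference from protein-coding promoters was -0.891 points (-6.58 to 8.24) among CpG-rich DHS and -3.28 points (-4.88 to -0.909) among the others. The TATA box was found in 66, 13% (10.4 to 16.3%), which was 6.74 points (4.05 to 9.98) above protein-coding promoters. From distal DHS, at 13.8%, it differed by -0.729 points (-3.43 to 2.52), and 11.2% of all DHS held it. In the central 1000 bp the TATA box was in 33.8% (29.8 to 38.0%) of noncoding promoters and in 42.8% (42.1 to 43.4%) of distal DHS. Among DHS that were not CpG-rich the excess over protein-coding promoters was 4.15 points (1.09 to 7.82).

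The PU.1 word, that of a factor of myeloid and B cells, was found in 32 noncoding promoter DHS, 6.32% (4.51 to 8.79%), and in 3.62% of all DHS. The share exceeded that of protein-coding promoters, 2.47%, by 3.86 points (2.03 to 6.33) and that of distal DHS, 4.25%, by 2.08 points (0.246 to 4.56). In the central 1000 bp it was 15.2% (12.4 to 18.6%) against 14.1% of distal DHS, so the difference from distal DHS was not seen in the wider window. The DHS of Gm17133, with a score of 184, also holds the word and is not shown. The word is in capitals, with 15 bp on each side, for 3 other DHS of high score that hold it. They are Gm14321 (222, chr2:167602922-167602959), the inner DHS of Dleu2 (182, chr14:62267809-62267846) and Gm12862 (172, chr4:118672418-118672455), on the plus strand of mm9.
Gm14321: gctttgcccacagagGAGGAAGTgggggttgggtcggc
Dleu2: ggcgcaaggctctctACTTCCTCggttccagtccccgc
Gm12862: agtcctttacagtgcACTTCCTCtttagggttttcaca

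The core word of CTCF, a protein of insulators and loop anchors, was found in 17, 3.36% (2.11 to 5.31%), compared with 1.37% of protein-coding promoters, 4.98% of distal DHS and 3.91% of all DHS. The share was 1.99 points (0.724 to 3.95) above protein-coding promoters, and its difference from distal DHS was -1.62 points (-2.90 to 0.355). In the central 1000 bp the share was 8.30% (6.20 to 11%) against 12.4% (12 to 12.9%) of distal DHS. An example, picked after its value was seen, is the DHS of score 181 at 2610035D17Rik, which lies 387445 bp from Sox9 (chr11:113033900-113033941, word in capitals).
2610035D17Rik: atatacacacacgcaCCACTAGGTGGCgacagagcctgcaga
Runx words were found in 6.32%, with 3.82% in protein-coding promoters, 8.48% in distal DHS and 6.81% in all DHS. The difference from distal DHS was -2.15 points (-4.00 to 0.342), and in the central 1000 bp the shares were 20.2% (16.9 to 23.9%) against 25.9% (25.3 to 26.4%) of distal DHS. The Ebf1 word was in 5.73% (4.02 to 8.11%), a difference of -3.30 points (-5.08 to -0.880) from protein-coding promoters. That difference was -2.42 points (-6.98 to 5.93) among CpG-rich DHS and -1.72 points (-3.55 to 0.866) among the others. Distal DHS were at 5.30% and all DHS at 6.63%.

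Of the 7 words described so far, PU.1 was the one whose interval in the central 300 bp did not include the share of all DHS. The other words follow. The E box was found in 24.9% of noncoding promoters and 24.2% of all DHS, the CCAAT box in 29.6% of both, and YY1 in 2.37% and 2.19%. The octamer, the site of Oct factors in immunoglobulin promoters, was in 9 DHS, 1.78%, and in 1.62% of all DHS. CRE was in 6, 1.19%, with 0.682% in all DHS. The NF-kB word was in 0 of 506, which allows a share of up to 0.593%, and in 0.395% of all DHS.

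**Figure D5:**
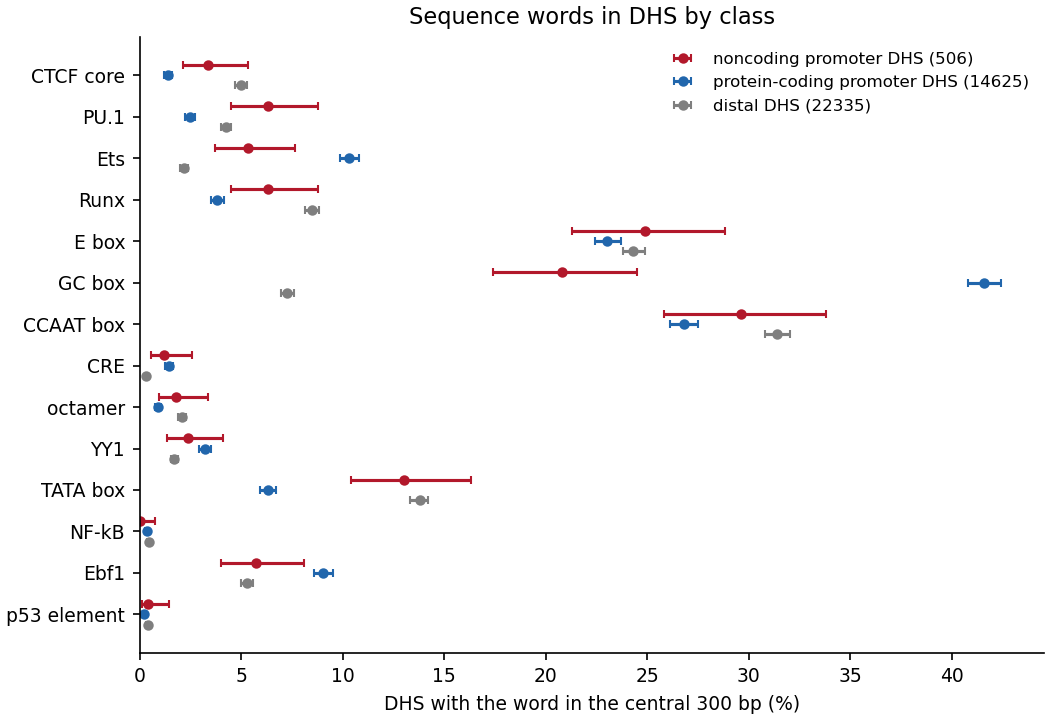
Share of DHS with each word in the central 300 bp (horizontal axis, percent) for noncoding promoter DHS (red), protein-coding promoter DHS (blue) and distal DHS (grey), with 95% Wilson intervals. The GC box in red, at 20.8%, lies between grey at 7.27% and blue at 41.6%, and PU.1 in red, at 6.32%, lies above both.

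The p53 element, of interest because the mice belong to a study of p53, was found in 2 of the 506 DHS, 0.395% (0.108 to 1.43%), and in 0.330% of all DHS. Both had low scores, 25.4 at Gm11724, antisense to Tmc8, and 13.2 at Gm13067. The element at Gm13067 matched the consensus with 0 mismatches, and its DHS covered the TSS of this gene (chr4:149423212-149423261, plus strand of mm9, element in capitals).
Gm13067: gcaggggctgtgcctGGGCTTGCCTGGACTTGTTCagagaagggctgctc
No p53 binding was measured in these files, and whether the factor occupies the element was not tested.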

How the data were processed

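One DNaseI library of splenic B cells was analysed; the input library was not used here, and whether the authors used it in calling peaks is not given in the sources used here. Nuclei were digested with several amounts of DNase I, and the digest with the best ratio of signal to noise by qPCR was sequenced, so the regions tested there may have shaped the choice. The deposited list gives each peak a position, a name as the MACS peak caller writes it and the authors' score. The scale of the score and the settings of the caller for this library are not given in the sources used here. The submitters' processing notes name BWA 0.6.2, SAMtools and mm9. The authors' score was used only to rank and describe, and no read counts or depth can be had.

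Peaks on chromosomes 1 to 19 were placed on GENCODE M1 (NCBI build 37, the assembly of mm9) with any overlap of at least 1 bp, and positions count from 1. CpG content and words were read from that assembly. Repeated sequence was the share of 31-base words of a peak that occur more than once in it. Shares carry Wilson intervals, shares of the gene lists exact binomial ones, medians order-statistic ones and differences of shares Newcombe ones, all at the 95% level. Many were computed and none was adjusted for their number. Where a count was 0, the limit given is that of 3 counts. The placement, distances and word searches were tested on simulated data against a direct count. Python 3.11.15 with pandas 2.3.3, scipy 1.17.1 and pysam 0.24.0 was used.

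The DHS, the lists of noncoding genes and the words were chosen with earlier results of these data known, and from general knowledge. Named are the 10 DHS of highest score, the 5 widest, the 5 farthest from a protein-coding TSS, the 5 genes with most DHS (ties in order of gene identifier) and the genes of the lists; the other microRNA hosts and the genes whose words or nearest gene are described were chosen after their values were seen. The result at 1 of the marker genes is not reported here. The alternatives are given at the end.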

Additional observations from a re-analysis of the deposited data

Results flagged for a closer look

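Chromosome X was outside the comparisons above. By the same rule it held 28 DHS at noncoding promoters. Of its 139 noncoding genes more than 6 kb from protein-coding TSSs, 19 had a DHS, or 13.7% (8.93 to 20.4%), and the interval includes the 18.1% of chromosomes 1 to 19. The median score of the 28 was 41.3, next to 41.4 on those chromosomes. Xist, whose RNA coats the inactive X chromosome in females, had 2 DHS with scores of 43.6 and 33.6. Its neighbour Enox reached 111, and B230206F22Rik, in the same region, had 4 with scores from 34.0 to 149. The highest score, 190, was at 9530027J09Rik.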

How the results depend on the processing

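The 8 values that describe the noncoding promoter DHS as a class were recomputed under 1 changed choice at a time, the word shares under 2 choices and the gene lists under 1. Words were also read in the central 1000 bp of distal DHS. Other comparisons between classes, those between gene types and the host shares were not recomputed. Keeping only DHS at or above the median score of the list left 293 noncoding promoter DHS at 12% of genes, with a median score of 73.8, a width of 1339 bp, 70.0% over a TSS, 21.2% CpG-rich, 62.5% with another DHS within 10 kb and 23.5% inside protein-coding genes. At that threshold, applied to the lists after the data had been seen, 0 imprinted and 0 developmental genes had a DHS. A window of 500 bp gave 15.9% of genes, a median score of 47.2, 1073 bp and 68.1% over a TSS. A distance of 10 kb from protein-coding TSSs gave 16.4% of genes and 77.8% with a DHS nearby. With the peak centre in the window it was 15.7% of genes and 66.3% over a TSS. LincRNA genes alone gave 209 DHS at 32.8% of genes, 1072 bp, 62.2% over a TSS, 21.5% CpG-rich, 78.0% with a DHS nearby and 18.7% inside protein-coding genes. When peaks less than 500 bp apart were merged, the median score was 47.6, 1266 bp, 65.1% over a TSS and 71.3% with a DHS nearby. Counting every transcript of a protein-coding gene as coding gave 23.2% inside protein-coding genes. A threshold, a window or the merging changes which peaks enter, and further causes were not tested. None of these values moved beyond its interval with a distance of 2 kb, with only the 5′ end of each gene, or in 2 alternatives added after seeing the data, leaving out DHS rich in repeated words (447 DHS, 16.7% of genes) and genes that RefSeq lists as protein-coding (484 DHS, 17.7% of genes). Of the 14 words, 13 were found in a larger share in the central 1000 bp than in the central 300 bp, beyond the interval, and at or above the median score Runx came to 4.44%, the GC box came to 28% and the p53 element to 0. Samples could not be paired because there is 1 library. The windows moved upstream belong to the same genes as those at the TSS, and the interval of that difference does not use this pairing. With no replicates and unknown depth, the intervals leave out the spread between animals and between digests.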

Other observations

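The annotation was uneven between chromosomes. Chromosomes 2, 4 and 11 held 1029 of the 2239 noncoding genes more than 6 kb from protein-coding TSSs, or 46.0%, and 206 of the 506 DHS, or 40.7%. A DHS was found at 16% (13.9 to 18.4%) of their genes and at 19.9% (17.8 to 22.3%) of those on the other chromosomes. By chromosome the share ran from 8.70% on chromosome 15, where 4 of 46 genes had one, to 38.7% on chromosome 17, where 29 of 75 had one, with a median of 18.9%.

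The protein-coding gene with most noncoding promoter DHS nearest to it was Sfi1, with 6 at Pisd-ps1 and Gm11399 on chromosome 11 and scores from 30.2 to 160. Repeated words made up at least 33.9% of 5 of these 6. Map3k1, a kinase gene of stress signalling, was the nearest of 5, at distances from 31881 to 194347 bp and with scores from 9.06 to 170. RefSeq listed the gene symbol of 24 of the 506 DHS as protein-coding in a later assembly, among them Spcs3 (216) and Spata5l1 (209), although release M1 gives these genes a noncoding type. Of the rest, 244 had a symbol that RefSeq lists as lncRNA.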
